A study of Rattus norvegicus with 6 samples.

Results

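Cathepsins are proteases of lysosomes and endosomes, and 10 of them were looked for by gene name in a table of normalized counts from rat kidney: Ctsa, Ctsb, Ctsc, Ctsd, Ctse, Ctsh, Ctsk, Ctsl, Ctss and Ctsz. A row of its own was present for 7 of the 10 among the 27321 features of the table, with Ctsl written as Ctsl1. Ctsa was counted only in a feature merged with Neurl2 and is given apart as uncertain, while Ctss and Ctsz were not analysed here. The family was chosen by the change of Ctse between STZ and control rats in these same libraries. The values of Ctse in that contrast are therefore a description and carry no test. The other 6 genes, called the lysosomal cathepsins below, were taken by family name, and their p-values come from a fit on the whole table.

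The IM tip, which is the innermost part of the renal medulla, was taken from male Sprague-Dawley rats aged 3 months. The 3 control libraries came from rats injected with vehicle. The 3 STZ libraries came from rats injected with streptozotocin at 62.5 mg/kg, a toxin of the insulin-producing cells that leaves the animals diabetic, and all tissue was collected 15 days later. The labels do not tie each library to a separate animal, so p-values measure the spread between these samples. A normalized count is the number of reads on a gene divided by 1 factor for its library, which put the worth of 1 read at 0.763 to 1.11 normalized counts. The libraries held from 3412311 to 5575171 reads on genes. Where a gene's values are listed by library, they run in the order of replicates 1, 2 and 3 of each group. Aqp2 and Aqp3, water channels of the collecting duct, had at least 2137 and 4728 normalized counts in every library. Lane 3 held every control library, whereas STZ replicates 1, 2 and 3 ran on lanes 7, 6 and 8, so lane and treatment cannot be told apart. In whole tissue, a change in the share of a cell type and a change of RNA per cell cannot be told apart either.

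Most cathepsins are made as inactive precursors, carried to the lysosome by mannose 6-phosphate receptors and activated there by the low pH. Ctsb, Ctsc, Ctsh, Ctsk, Ctsl, Ctss and Ctsz are cysteine proteases of the papain type, Ctsd and Ctse are aspartic proteases related to pepsin, and Ctsa is a serine carboxypeptidase. Ctse stands apart from the others in that it is found in endosomes and the endoplasmic reticulum more than in lysosomes, and it is known from gastric mucosa, urothelium and cells of the immune system. Lysosomal genes are switched on together by the transcription factor Tfeb, which binds the letters CACGTG within a longer element.

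The start regions of the aspartic proteases are shown because Ctsd and Ctse are the closest relatives in the set. Each run holds the 250 bases before the start of the gene in RefSeq on the GRCr8 assembly, a later one than that of the counts, and capitals mark CACGTG, a motif that reads the same on both strands. The Ctsd window is chr1:206968822-206969071 on the minus strand and the Ctse window is chr13:45643965-45644214 on the plus strand.
Ctsd: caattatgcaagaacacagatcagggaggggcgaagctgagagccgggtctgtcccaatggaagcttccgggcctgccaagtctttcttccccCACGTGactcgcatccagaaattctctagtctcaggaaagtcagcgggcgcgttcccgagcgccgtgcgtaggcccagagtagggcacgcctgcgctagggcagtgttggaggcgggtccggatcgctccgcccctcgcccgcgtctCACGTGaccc
Ctse: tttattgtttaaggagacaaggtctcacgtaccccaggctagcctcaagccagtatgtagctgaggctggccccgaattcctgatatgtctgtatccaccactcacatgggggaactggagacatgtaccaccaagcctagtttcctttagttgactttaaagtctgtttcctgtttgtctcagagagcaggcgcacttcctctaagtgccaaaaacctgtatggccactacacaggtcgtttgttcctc

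The Ctsd window held the motif at 2 places, which begin 157 and 10 bases before the start. The Ctse window did not hold these letters. RefSeq windows were found for 9 of the 10 cathepsins, all but Ctsb, and Ctsd was the only one of the 9 with the motif. Of all 33469 windows of this length, 5.59% held it and 0.43% held it at 2 or more places. These matches describe the letters and say nothing about binding.

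Ctse, on chromosome 13 of rn4 from 44582910 to 44605241, was low in control and higher in every STZ library. Normalized counts were 28.7, 39.7 and 34.5 in control replicates 1, 2 and 3, which stood for 28, 52 and 31 reads. In STZ replicates 1, 2 and 3 they were 192, 2529 and 284, which stood for 207, 2557 and 283 reads. The groups did not overlap, and the lowest STZ library was 4.85 times the highest control library. The control libraries were close to each other, whereas STZ replicate 2 was 13.2 times STZ replicate 1 and 8.9 times STZ replicate 3. The mean was 34.3 ± 5.48 (SD, n = 3) for controls and 1002 ± 1323 (SD, n = 3) after STZ, so the SD of the STZ group was larger than its mean.

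On the log2(normalized count + 1) scale, on which all fold changes were computed and which understates changes of low genes, the log2 fold change of Ctse was 3.89 (SE 0.72). It ranked 7 among the 13486 features that entered the fit, for which the mean had to reach 5 normalized counts. Without STZ replicate 2 the log2 fold change was 2.75, and the mean of the remaining STZ libraries, 238 normalized counts, was 6.94 times the control mean. The ratio of means over all libraries was 29.2. The size of the change thus rested on 1 library, while its direction was the same in all 3. Within the STZ group the SD of Ctse was 2.0 on the log2 scale, and 99.3% of the features tested had a smaller one (median of all features, 0.31).

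**Figure D1:**
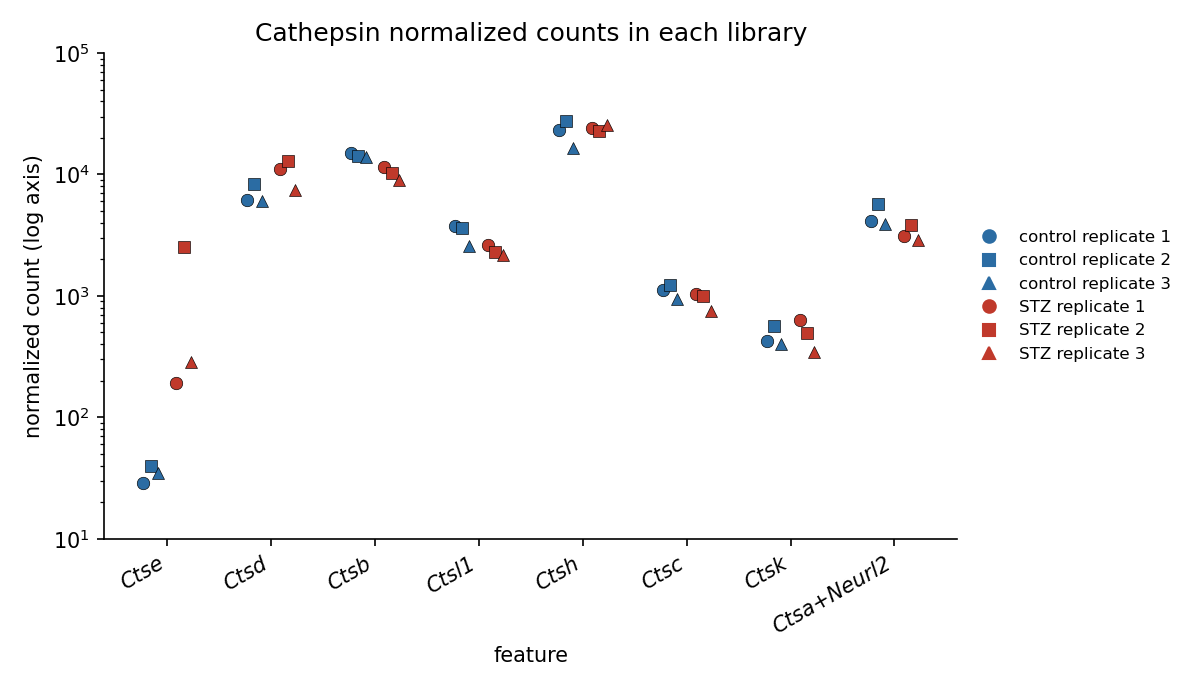
Normalized count of each cathepsin feature (log axis) in the 3 control (blue) and 3 STZ (red) libraries, 1 symbol per library. Ctse lies between 28.7 and 39.7 in control and between 192 and 2529 in STZ libraries, and the other features move by far less. Heights of different genes are not comparable, since the counts are not divided by transcript length.

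Rab7b, the next gene downstream of Ctse, was high in STZ replicate 2 alone, whereas Ctse was above all controls in every STZ library. Rab7b encodes a small GTPase of late endosomes and the Golgi, and it begins 14821 bases beyond the end of Ctse on rn4, from 44620062 to 44636864. Both genes lie on the plus strand in RefSeq. Rab7b had 3.08, 1.53 and 3.34 normalized counts among controls, against 0, 47.5 and 3.01 among STZ libraries. The 48 reads of STZ replicate 2 were the only value above the floor of 3 reads, which covers counting error only. By limma the change of Rab7b was 0.71 ± 1.24 on the log2 scale (SE). Rab7b reached the mean needed for the fit only through STZ replicate 2. It was also added after its values were seen, so this change is a description and carries no test. Whether reads were counted by strand is not given in the sources used here.

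The other 6 genes within 200 kb of Ctse were low, and 4 of them were too low to be tested. Avpr1b, the vasopressin receptor gene upstream of Ctse, had between 0.929 and 8.39 normalized counts over the 6 libraries, with 0.989 in STZ replicate 2. Slc26a9, an anion transporter gene beyond Rab7b, was highest in STZ replicate 2, but at 3.96 normalized counts or 4 reads. Pm20d1 had between 15.1 and 30.1 normalized counts and Srgap2 between 19.5 and 40.1, and STZ replicate 2 lay inside the range of the other libraries for both. Slc41a1 and D4A3G3_RAT had at most 5 and 3 reads in any library.

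**Figure D2:**
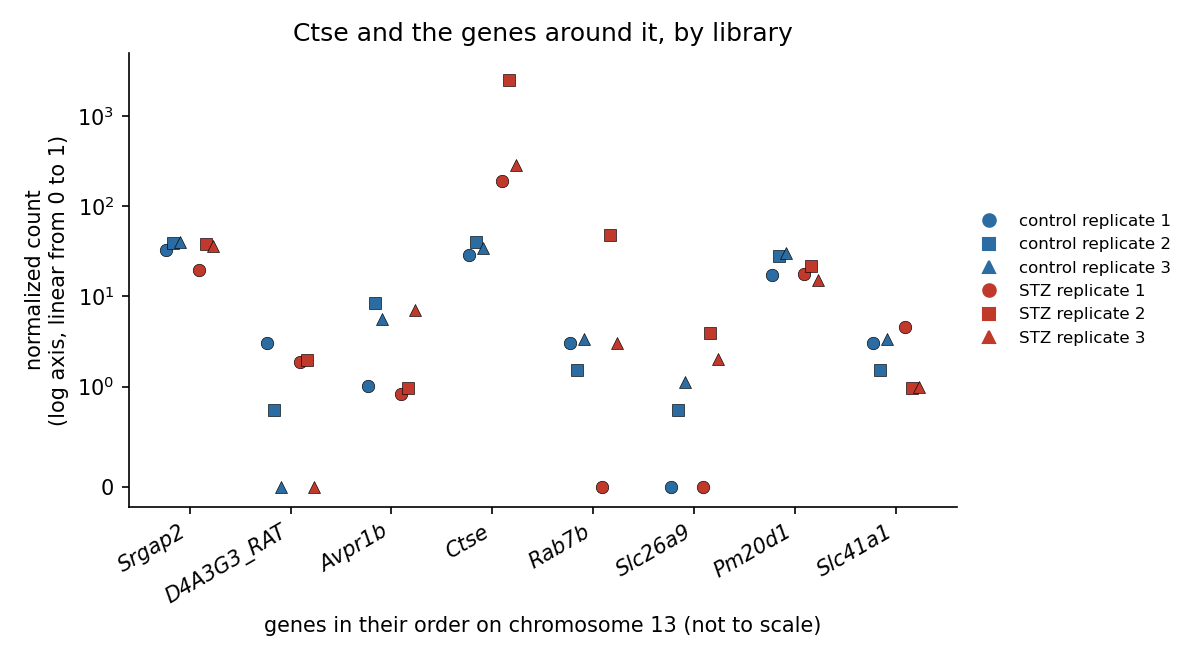
Normalized counts (log axis, linear from 0 to 1) of Ctse and the 7 genes within 200 kb of it, in their order on chromosome 13, by library. In STZ replicate 2 Ctse and Rab7b reach 2529 and 47.5 normalized counts, and STZ replicates 1 and 3 lie above all controls for Ctse.

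None of the 6 lysosomal cathepsins passed an adjusted p of 0.05 by limma, against 2.1% of all features tested (283 of 13486), and 2 of the 6, Ctsd and Ctsl1, had an unadjusted p under 0.05, as did 14.7% of all features. Their adjusted p-values lay between 0.314 and 0.967, and their SEs between 0.20 and 0.28 on the log2 scale. Log2 fold changes were above 0 for 3 genes and below 0 for 3, with a median of −0.10 beside 0.01 over all features. The control and STZ values were without overlap for 1 of the 6, which held for 20.3% of the features tested. SDs within a group ran from 0.05 to 0.43 on the log2 scale for these 6 genes, beside medians over all features of 0.34 in control and 0.31 in STZ libraries.

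Ctsd, the other aspartic protease and a main enzyme of lysosomal protein breakdown, lies on chromosome 1 from 202619668 to 202631545. It had 6136, 8384 and 6057 normalized counts among controls, against 11127, 12980 and 7449 among STZ libraries. STZ replicates 1 and 2 lay above all controls, but STZ replicate 3 lay below control replicate 2. The log2 fold change was 0.60 (95% CI 0.01 to 1.18, adjusted p = 0.329 by limma). As for Ctse, STZ replicate 2 was the highest library of Ctsd, at 0.94 above the control mean on the log2 scale, beside 6.18 for Ctse.

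Ctsb, a cysteine protease that also cuts dipeptides from the ends of proteins, lies on chromosome 15 from 42402828 to 42423700. Its counts were 14963, 14071 and 13996 among controls, against 11602, 10220 and 9057 among STZ libraries. Every STZ library lay below every control library, and Ctsb was the only lysosomal member for which the groups did not overlap. The log2 fold change was −0.49 (95% CI −0.98 to 0.01, adjusted p = 0.357 by limma).

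Ctsl1, the gene of cathepsin L, lies on chromosome 17 from 6288001 to 6294150 and had a log2 fold change of the same size. Its counts were 3778, 3631 and 2585 among controls, against 2616, 2284 and 2162 among STZ libraries. The groups overlapped through control replicate 3, which lay just below STZ replicate 1. The log2 fold change was −0.49 (95% CI −0.95 to −0.02, adjusted p = 0.314 by limma). The feature that merges Ctsa, a carboxypeptidase, with Neurl2 had 4117, 5683 and 3909 normalized counts among controls, against 3141, 3801 and 2865 among STZ libraries. These did not overlap either, but reads of the merged genes could not be divided between them (log2 fold change −0.47, adjusted p = 0.36).

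The remaining members had fold changes nearer to 0. Ctsh, an aminopeptidase known for its part in processing surfactant protein, lies on chromosome 8 from 94971673 to 94990410. It had 23425, 27323 and 16550 normalized counts among controls, against 24248, 22698 and 25484 among STZ libraries. The STZ libraries fell inside the range of the controls, and the log2 fold change was 0.13 (95% CI −0.48 to 0.75). Without control replicate 3 it was −0.069.

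Ctsc, the dipeptidyl peptidase that activates proteases of immune cell granules, lies on chromosome 1 from 144629801 to 144661183. It had 1115, 1238 and 945 normalized counts among controls, against 1041, 998 and 758 among STZ libraries, with overlap (log2 fold change −0.24, 95% CI −0.68 to 0.19). Ctsk, the collagen-cleaving protease of osteoclasts, lies on chromosome 2 from 190394853 to 190405667. It had 429, 562 and 403 normalized counts among controls, against 628, 496 and 348 among STZ libraries. STZ rats held both the highest and the lowest library of Ctsk, and the log2 fold change of 0.05 (95% CI −0.47 to 0.58) was negative without control replicate 3 (−0.042) or without STZ replicate 1 (−0.15). Over the 6 lysosomal cathepsins the intervals reached up to 1.18 for Ctsd and down to −0.98 for Ctsb, and changes inside these intervals were not excluded. The intervals of Ctsd and Ctsl1 left out 0, but neither gene passed after adjustment over all features.

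**Figure D3:**
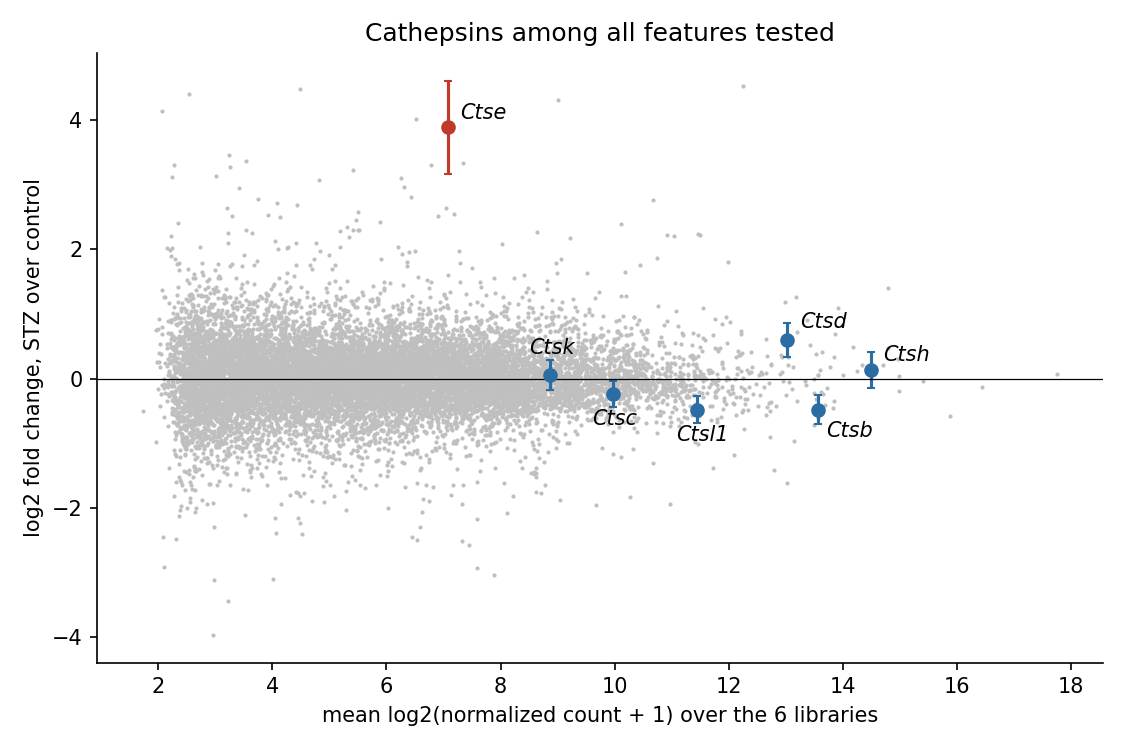
Log2 fold change (STZ over control) against the mean log2(normalized count + 1) for the 13486 features tested (grey) and the 7 cathepsins, with bars of 1 SE. Ctse (red) lies at 3.89 and the 6 lysosomal cathepsins (blue) between −0.49 and 0.60.

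Ctse was then set against the lysosomal cathepsins library by library. For each library the mean log2 value of the 6 genes was subtracted from that of Ctse, and the result was expressed relative to the mean of the controls, so that gene length cancels. Controls 1, 2 and 3 were at −0.26, 0.02 and 0.25, and STZ replicates 1, 2 and 3 at 2.36, 6.18 and 3.33. The difference between groups was 3.96 on the log2 scale and 2.85 without STZ replicate 2. Its direction follows from the choice of Ctse and it carries no test. No value of the 6 lysosomal genes was further from its control mean than −0.66 or 0.94 on the log2 scale, including those of STZ replicate 2.

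Few further cathepsins were counted. Of 11 other cathepsin genes listed, 7 had a row, 3 of these were at or under 3 reads in all libraries, and 2 had a mean of at least 5 normalized counts. Ctsf, a lysosomal cysteine protease, had 231, 241 and 236 normalized counts among controls, against 185, 147 and 181 among STZ libraries, without overlap (log2 fold change −0.47, adjusted p = 0.248 by limma). Ctsll3, one of a cluster of related genes on chromosome 17 whose reads may be shared, ranged from 2.79 to 37.8 normalized counts with overlap. Neither passed. Ctsr, of the same cluster, ranged from 0.763 to 12.2 normalized counts and was too low to be tested. Of 7 other aspartic proteases listed, 6 were found, 4 were tested and none passed, beside the same 2.1%. Their log2 fold changes ran from −0.62 for Napsa through −0.16 for Bace1 to 0.54 for Bace2. Pga5, a pepsinogen gene and so a relative of Ctse, had 37.9, 66.4 and 37.8 normalized counts among controls, against 67.8, 91.0 and 39.2 among STZ libraries (log2 fold change 0.44, adjusted p = 0.638). STZ replicate 2 was its highest library, and the groups overlapped.

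Of 17 listed genes that restrain or activate cathepsins, 14 were found, 7 of these were at or under 3 reads in all libraries, and 5 were tested. None of the 5 passed, beside 2.1% of all features tested, and their median log2 fold change was −0.07. Cst3, the secreted inhibitor cystatin C, had between 1006 and 1649.5 normalized counts in control and between 880 and 1184 in STZ libraries (log2 fold change −0.49, adjusted p = 0.365). Cstb, an inhibitor inside the cell, had between 1635 and 2494 in control and between 1632 and 2120 in STZ libraries. Psap, the precursor of activators of lysosomal lipid breakdown, had between 7954 and 11078 in control and between 6706 and 8645 in STZ libraries. Lgmn, which cuts the precursors of several cathepsins, had between 134 and 231 and between 158 and 208. All 4 overlapped between the groups.

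Among the wider lysosomal genes, 48 of 58 names were found and 47 tested, and 1 passed, against 2.1% of all features. The median log2 fold change of the 47 was −0.02, and 12 of them were without overlap between the groups, beside 20.3% of all features. The gene that passed was Gla, the alpha-galactosidase that is lost in Fabry disease. It lies on chromosome X from 122044702 to 122056327 and had 907, 681 and 716 normalized counts among controls, against 1437, 1389 and 1417 among STZ libraries. The STZ libraries were close to each other and above all controls (log2 fold change 0.89, SE 0.18, adjusted p = 0.0341 by limma). Its log2 fold change stayed between 0.81 and 1.02 over 14 alternatives, with the adjusted p under 0.05 in 8. That call was lost without control replicate 2 (0.173), control replicate 3 (0.0531) or STZ replicate 1 (0.105), 2 (0.129) or 3 (0.0902), and in limma without the trend (0.169).

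The other abundant lysosomal genes had fold changes of either sign, and none of them passed in the fit described here. Tpp1, a peptidase that trims peptides left by other proteases, had 1469, 1651 and 1277 normalized counts among controls, against 921, 978 and 837 among STZ libraries. These did not overlap (log2 fold change −0.68, adjusted p = 0.0917 by limma), and Tpp1 passed with a replicate block and with libraries scaled to equal totals. Asah1, the acid ceramidase, had between 824 and 1202 normalized counts in control and between 1232 and 1655 in STZ libraries, also without overlap (log2 fold change 0.43, adjusted p = 0.378). Cd63, a tetraspanin of the lysosomal membrane, had between 3351 and 4316 in control and between 2788 and 2925 in STZ libraries (log2 fold change −0.43, adjusted p = 0.325). Lamp2, the membrane protein that shields lysosomes, and Atp6ap1, a subunit of the proton pump that acidifies them, overlapped between the groups, with log2 fold changes of −0.11 and 0.05.

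**Figure D4:**
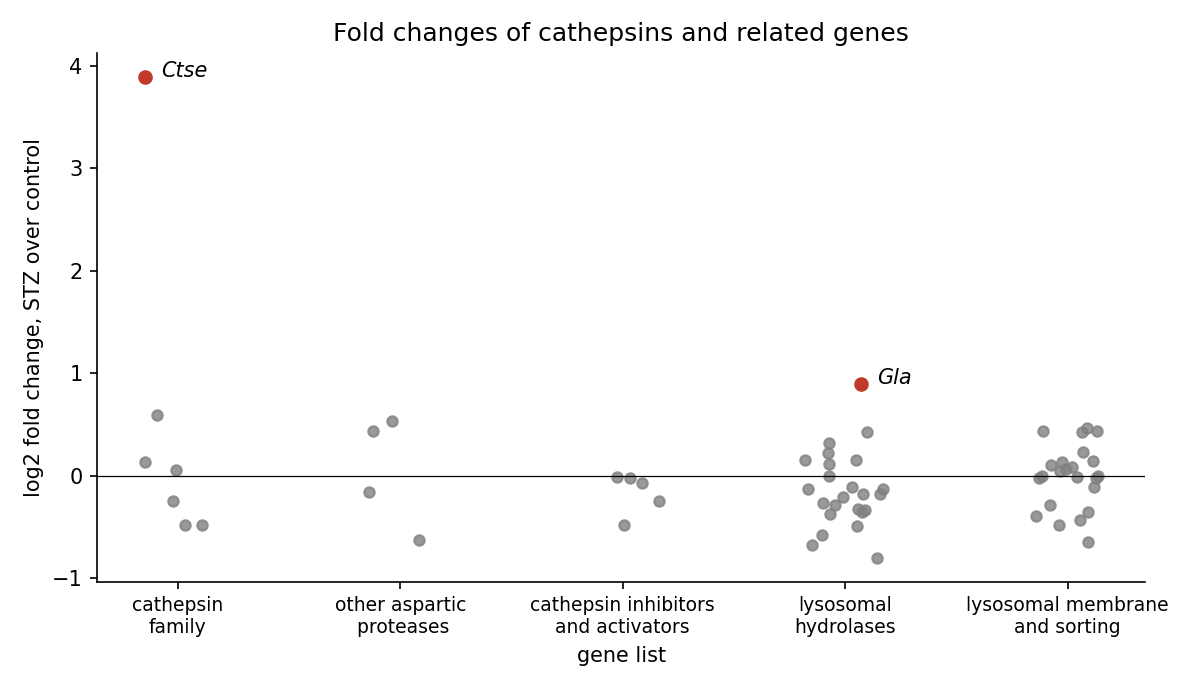
Log2 fold change (STZ over control) of each tested gene of the cathepsin family and of 4 related lists, 1 point per gene, spread sideways for legibility. Ctse at 3.89 lies above every other point, and Gla at 0.89 is the lysosomal gene that passed.

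The 5 features whose values ran closest to those of Ctse over the 6 libraries, by Pearson's r on the log2 scale, were Psd4 (0.991), B4galt5 (0.990), D4ADV5_RAT (0.989), Dpep2 (0.985) and Tmc4 (0.983). These correlations describe 6 points that share group and library, and features were picked for them. Dpep2, a membrane dipeptidase, had 80.0, 79.3 and 71.2 normalized counts among controls, against 168, 369 and 210 among STZ libraries. Its order among the libraries follows from its being picked for likeness to Ctse, and so does the direction of its log2 fold change of 1.60, which is given with no test. Tmc4, a membrane protein, had between 1171 and 1231 normalized counts in control and between 1663 and 2144 in STZ libraries (log2 fold change 0.61).

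Markers of cell types known to hold Ctse were read beside it. Of 10 urothelium markers 6 were found, and Upk3a and Upk1b, which encode uroplakins of the urothelial surface, passed the threshold upwards, beside 2.1% of all features tested in either direction. The other 4 did not pass, with log2 fold changes of 0.96 for Upk2, 0.62 for Upk3b, 0.27 for Tp63 and 0.04 for Upk1a. Upk3a had 27.7, 28.2 and 50.1 normalized counts among controls, against 332, 367 and 333 among STZ libraries (log2 fold change 3.30, adjusted p = 0.000117 by limma). The STZ libraries were nearly equal for Upk3a, unlike for Ctse. Upk1b had a log2 fold change of 1.25 (adjusted p = 0.0489 by limma), a call that held in 6 of 14 alternatives (highest adjusted p 0.206). That call was lost without control replicate 1 or 2 or any 1 STZ library. It was also lost with a minimum mean of 1, with equal library totals and in limma without the trend. The summed level of the 6 markers was 90.8 to 143 in control libraries and 441, 529 and 484 in STZ replicates 1, 2 and 3. Without Upk3a the sum was 62.6 to 92.4 in control libraries and 109, 162 and 151 in STZ replicates 1, 2 and 3. Both sums were highest in STZ replicate 2, as was Ctse, but they stood only a little above those of STZ replicate 3. Within the STZ group, Upk3a, Upk1b and Tp63 were highest in replicate 2, Upk1a and Upk2 in replicate 3, and Upk3b in replicate 1. The part of urothelium in the Ctse values was not tested.

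No immune cell marker passed the threshold, beside 2.1% of all features tested. None of the 10 macrophage and monocyte markers found, of 14 listed, passed, and their summed level was 869 to 2365 normalized counts in control and 1322 to 2133 in STZ libraries. Of these 10 only Cd14 was without overlap between the groups, beside 20.3% of all features tested. It was lower in STZ libraries (log2 fold change −0.70, adjusted p = 0.0751 by limma). Sums ran from 345 to 449 in control and 346 to 365 in STZ libraries for 5 B and plasma cell markers. For 4 T cell markers they ran from 12.3 to 30.5 and 30.6 to 43.5, and for 4 dendritic cell markers from 8.20 to 45.6 and 11.1 to 56.2. The T cell sums did not overlap, but the gap was that between 30.5 and 30.6 normalized counts. STZ replicate 2, the library with the most Ctse, had the lowest macrophage sum of the STZ group (1322). Its B and plasma cell sum was also the lowest, at 346 beside 347 in STZ replicate 1. Its T cell sum was the highest of the STZ group (43.5), and its dendritic cell sum (34.6) lay between those of STZ replicates 1 and 3. The part of these cells in the Ctse values was not tested.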

How the data were processed

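RNA from the IM tip of 3 control and 3 STZ rats was amplified with a PCR-based cDNA kit without molecular identifiers and sequenced. Per the submitters' processing notes, STAR 2.3.1t, the rn4 build and DESeq 1.16.0 were used. The authors deposited normalized counts, treated here as a signal. Uniquely mapped reads were counted per gene, per the study's methods, with a program and strand setting that are not given in the sources used here. Amplified reads are not independent molecules.

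Of the 27321 features, 527 merge several genes and 2720 lie between genes. No column was left unmatched (0). Features with a mean of at least 5 were compared as log2(normalized count + 1) by limma 3.58.1 with an intensity trend in R 4.3.3, with Benjamini-Hochberg adjustment and a threshold of 0.05. The script was tested on simulated data. Python 3.11.15, pandas 2.3.3, numpy 2.4.6 and matplotlib 3.10.9 were used for the rest. The members and lists were chosen with earlier results of these data known.

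Named genes were the members, every gene that passed and the 3 highest by mean in each list of cathepsins, inhibitors, aspartic proteases and lysosomal genes, the 5 features most like Ctse and markers a statement rests on. Napsa, Lgmn and the neighbours of Ctse were added after their values were seen. Alternatives were other pseudocounts, filters and scaling, no trend, a replicate block and leaving out each library.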

Additional observations from a re-analysis of the deposited data

How the results depend on the processing

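None of the 6 lysosomal cathepsins passed under any of 14 alternatives. With equal library totals the adjusted p by limma was 0.0798 for Ctsl1 and 0.0846 for Ctsb, the nearest to the threshold. Ctse, alone and against the lysosomal cathepsins, kept its direction in all that were run. That direction follows from the choice of Ctse and carries no test. Ctse varied from 2.75 to 4.6 when 1 library was left out, and its value less the lysosomal mean from 2.85 to 4.76. The ratio of group means, an alternative chosen after seeing the data, gave 4.87 for Ctse. The median of the lysosomal cathepsins ranged from −0.24 to 0.02 and turned positive without control replicate 2 (0.023). Ctsh ranged from −0.07 to 0.29 and was negative without control replicate 3 (−0.069). Ctsk ranged from −0.15 to 0.28 and was negative without control replicate 3 (−0.042) or STZ replicate 1 (−0.15). Features passing numbered 283, and 31 without the trend, 561 with the replicate block and 86 to 341 with 1 library left out. Other alternatives gave 273 to 413. Lysosomal genes passing numbered 1, and 3 with equal library totals (Gla, Tpp1 and Aga), 0 without the trend, 2 with the replicate block (Gla and Tpp1) and 0 to 1 with 1 library left out. The cause was not tested. Deviations from the group mean correlated at 0.574, −0.0148 and 0.496 between same-numbered control and STZ libraries 1, 2 and 3. Control replicate 2 was near 0 with STZ replicates 1, 2 and 3 alike (0.00501, −0.0148 and 0.0062). Control replicate 1 was at −0.253 and −0.487 with STZ replicates 2 and 3, and control replicate 3 at −0.592 and 0.27 with STZ replicates 1 and 2. Deviations within a group sum to 0, so these values are not independent of each other. Whether same-numbered libraries shared more than a number was not tested. edgeR, TMM scaling and DESeq2 were not run. The values are whole multiples of what 1 read is worth, but in STZ replicates 2 and 3 that worth lies near 1, and the reads recovered there were not accepted for a count test. Depth of 3412311 to 5575171 reads limits genes near 3 reads, such as Rab7b.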

Other observations

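Ctse shared its excess in STZ replicate 2 with few other features, which were chosen here after their values were seen. The gap between STZ replicate 2 and the next STZ library was 3.15 on the log2 scale for Ctse, and 6 of 13486 features, Ctse included, had a gap of at least that size. Oas1f, of a family of interferon-induced genes, had 19.5, 348 and 28.1 normalized counts in STZ replicates 1, 2 and 3 and between 13.3 and 29.0 in control libraries. Ubd, a ubiquitin-like gene induced by inflammatory cytokines, had 5.57, 93.0 and 6.02 in STZ replicates 1, 2 and 3, and 1.02, 35.9 and 11.1 in control replicates 1, 2 and 3. LOC682397 had 81.7, 1492 and 147 normalized counts in STZ replicates 1, 2 and 3. RGD1305184 and Rab7b completed the 6, with 29.7 and 47.5 normalized counts in STZ replicate 2. Of the 6, Ctse was the one whose other STZ libraries also lay above all controls.

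Some markers of other cell types differed between the groups, beside 2.1% of all features tested. The thick ascending limb list had 1 marker lower of 2 tested (Umod, log2 fold change −2.93). The intercalated cell list had 2 lower of 3 (Atp6v1b1, −1.87, and Slc4a1, −1.10), and the endothelium list 1 higher (Vwf, 1.97) and 1 lower (Emcn, −1.38) of 4. No marker passed among 6 of the collecting duct, 2 of the proximal tubule, 3 of red blood cells and 1 of leukocytes. The collecting duct list nevertheless had a median log2 fold change of 0.59. Of its 6 markers 2, Aqp2 (0.84) and Scnn1b (0.79), were higher in STZ libraries without overlap, beside 20.3% of all features tested in either direction. The part of these cell types in the cathepsin values was not tested.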
